A study of Mus musculus with 8 samples.

Results

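Keratin-associated proteins are the small matrix proteins in which the keratin filaments of hair and claw are embedded, and their mouse genes carry symbols beginning with Krtap. Every table row whose platform annotation listed only such symbols was taken, which gave 45 of the 28944 probe sets tested. Of these, 44 carried 1 symbol each and are the members described below, and 1 carried several (Krtap5-3 and Krtap5-2) and is given apart. Krtdap, a keratinocyte gene with a similar name, was left out by the rule, as were 14 rows that listed Krtap symbols together with other gene models. The 44 members were 44 different genes, all found in RefSeq (GRCm38.p6) under the same symbol, and RefSeq lists 56 protein-coding genes of this name. They fall into 21 families by the number after Krtap.

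RNA came from whole paws of male mice of the DBA/1J strain, which is prone to arthritis after collagen immunisation. The labels give the age as 8 to 10 weeks, which is not taken here as the age at tissue collection. The CIA group received 150 µg of type II collagen from chicken, emulsified in complete Freund adjuvant, at the tail base, boosted at week 3 in incomplete adjuvant, and the CIA+MLIF group received the same together with weekly nasal MLIF, an anti-inflammatory pentapeptide of Entamoeba histolytica. The adjuvant group received complete and then incomplete adjuvant without collagen, and the adjuvant+MLIF group received this and weekly nasal MLIF. All 4 groups, controls included, thus received Freund adjuvant, and none was untreated. The labels state a length of MLIF treatment for the adjuvant+MLIF group but none for CIA+MLIF. Whether both MLIF groups followed the same schedule is therefore not known, which limits comparisons that use both of them. Each group held 8 mice and is represented by 2 arrays, from tissue taken 4 weeks after the booster per the sample labels. The text on the series' design instead places the collection 4 weeks before the booster. With a booster at week 3 this would precede the first immunisation, so the sample labels are followed here, although the sources disagree. The labels call the arrays biological replicates but do not say how many mice went into each, so the p-values rest on the spread between arrays, which may be technical in part.

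Hair keratins form the filaments of the hair cortex and cuticle, and keratin-associated proteins fill the space between them and cross-link them through disulphide bonds. The cysteine-rich families include Krtap1 to Krtap5, Krtap9, Krtap10 and Krtap12, of which Krtap5, Krtap10 and Krtap12 are known mainly from the hair cuticle. The families rich in glycine and tyrosine include Krtap6, Krtap7, Krtap8, Krtap19 and Krtap21 and belong to the cortex. The genes are switched on late, as cells of the hair or claw matrix differentiate, and lie in a few tight clusters.

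According to RefSeq the 44 members lay in 4 such clusters, with 5 genes on chromosome 7 (the Krtap5 family), 3 on chromosome 10 (Krtap10 and Krtap12), 15 on chromosome 11 and 21 on chromosome 16. Promoters were available for 40 of them (RefSeq, GRCm38.p6). The letters TATAAA, the core of a TATA box, occurred on either strand in the 250 bases before the annotated start of 31 of these 40 (77.5%), against 12.4% of all 32851 promoters in the table. On the sense strand within the last 50 bases they were found in 25 of 40 (62.5%), against 2.63% of all promoters. The letters CTTTGA, a core recognised by LEF1 and TCF factors, were found in 11 of 40 (27.5%), against 13.8% of all promoters. CTTTGA was searched on both strands of the same 250 bases, and neither of the motifs contains the other. A match describes these letters, not a bound site.

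The 120 bases before the start are shown for genes whose probe sets carried the results below: Krtap8-1, Krtap11-1 and Krtap6-2, which were highest in CIA+MLIF, and Krtap5-2, Krtap5-5 and Krtap15, which were highest in CIA. Capitals mark TATAAA.
Krtap8-1 chr16:89487953-89488072 (- strand): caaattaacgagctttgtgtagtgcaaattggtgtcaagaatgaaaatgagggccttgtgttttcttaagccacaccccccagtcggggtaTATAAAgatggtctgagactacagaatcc
Krtap11-1 chr16:89571184-89571303 (- strand): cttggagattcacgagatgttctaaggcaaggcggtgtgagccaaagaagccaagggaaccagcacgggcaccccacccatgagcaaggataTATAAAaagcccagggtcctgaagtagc
Krtap6-2 chr16:89420112-89420231 (- strand): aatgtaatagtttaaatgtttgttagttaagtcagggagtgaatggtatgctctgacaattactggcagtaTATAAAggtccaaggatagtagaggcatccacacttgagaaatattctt
Krtap5-2 chr7:142176006-142176125 (- strand): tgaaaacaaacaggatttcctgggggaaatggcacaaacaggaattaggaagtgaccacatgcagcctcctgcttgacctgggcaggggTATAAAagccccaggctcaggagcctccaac
Krtap5-5 chr7:142229972-142230091 (- strand): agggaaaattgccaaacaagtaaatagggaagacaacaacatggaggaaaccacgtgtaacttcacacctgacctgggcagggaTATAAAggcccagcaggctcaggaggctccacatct
Krtap15 chr16:88828889-88829008 (+ strand): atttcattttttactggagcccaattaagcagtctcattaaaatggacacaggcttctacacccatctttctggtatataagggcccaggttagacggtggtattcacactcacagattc
The motif began 29 bases before the start of Krtap8-1, 28 before Krtap11-1, 49 before Krtap6-2, 31 before Krtap5-2 and 36 before Krtap5-5. These letters are not in the window of Krtap15.

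Signals are log2 values as deposited. Entries without annotation at the head of the table, taken as array controls, had medians of 5.88 on CIA replicate 1 and 6.29 to 6.44 on the other arrays. CIA replicate 1 stood apart with a median of 6.66 over all probe sets tested, against 7.07 to 7.10 on the other 7 arrays, and the change of all probe sets had a median of -0.25 in CIA against adjuvant and of 0.24 in CIA+MLIF against CIA. Replicates differed least in adjuvant+MLIF (SD of the difference over all probe sets 0.094) and most in CIA (0.32), and over the members alone these values were 0.11 and 0.62. Genes of cartilage, bone and synovium, which are part of the sampled paw, were above the control median on every array (11 of 11 measured), as were 16 of 16 skeletal muscle genes. Precision rests on 2 arrays a group. Values of different probe sets are not compared with each other, since each binds with its own strength, and members with near-identical copies (Krtap4, Krtap5, Krtap6, Krtap10 and Krtap19 among them) can share signal.

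The members were near the level of the controls without collagen. On the adjuvant arrays 15 and 16 of the 44 exceeded the control median of their array, and 14 and 13 did so on the adjuvant+MLIF arrays. With collagen it was 34 and 36 on the CIA arrays and 33 on each CIA+MLIF array. The median member signal was 5.91 and 5.90 in adjuvant, 5.75 and 5.69 in adjuvant+MLIF, 7.62 and 7.71 in CIA, and 8.01 and 8.08 in CIA+MLIF. The arrays of the collagen groups thus lay above all arrays of the adjuvant groups. Where a member's low group lies at or under the control median, the size of its rise is not well determined. In whole paw RNA, fewer cells of a type and less RNA per cell cannot be told apart.

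**Figure D1:**
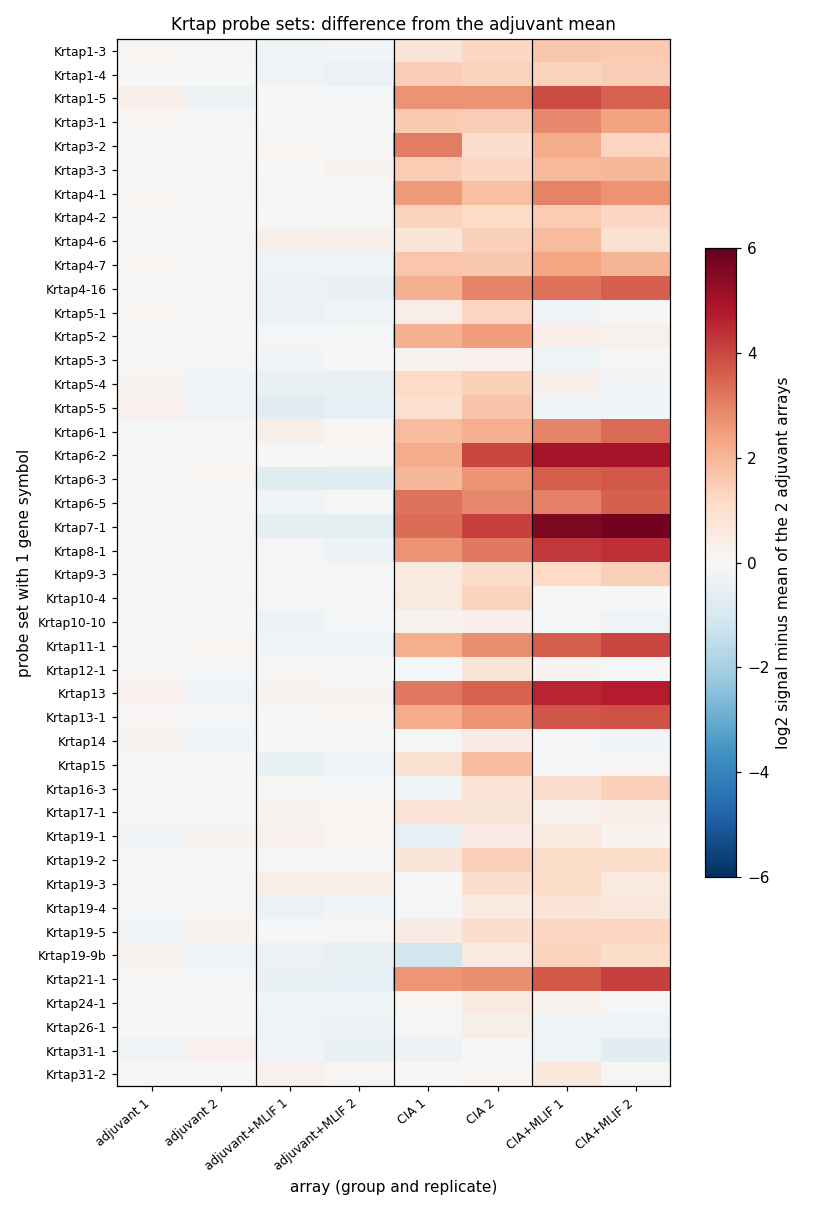
Each of the 44 single-symbol Krtap probe sets (rows) on each of the 8 arrays (columns, 2 per group); colour gives the log2 signal minus the mean of the 2 adjuvant arrays of the same probe set, from blue (lower) to red (higher). The Krtap6, Krtap7, Krtap8 and Krtap13 rows are reddest on the CIA+MLIF arrays, whereas the Krtap5 rows are red on the CIA arrays and pale on CIA+MLIF.

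CIA was set against adjuvant to ask what immunisation with collagen changed in mice without the peptide. Of the 44 members 30 rose and none fell (limma, moderated test, Benjamini-Hochberg over all probe sets). Of all probe sets 18.5% were called, 4.3% higher and 14.2% lower. At an unadjusted p under 0.05 there were 31 members, all higher, against 10204 of all probe sets (35.3%). The median member change was 1.29 on the log2 scale, and the range ran from -0.29 (Krtap19-9b) to 3.73 (Krtap7-1). The largest rises were those of Krtap7-1, Krtap13, Krtap6-2 and Krtap6-5, of which all but the high-sulphur Krtap13 are glycine-tyrosine-rich.

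Krtap7-1, a glycine-tyrosine-rich protein of the hair cortex (probe set 10440729), had log2 signals of 6.30 and 6.48 under adjuvant, 5.86 and 5.85 under adjuvant+MLIF, 9.74 and 10.50 under CIA and 11.98 and 12.18 under CIA+MLIF. No groups overlapped, and both collagen groups lay far above the adjuvant groups. It rose from 6.39 ± 0.13 to 10.12 ± 0.54 (SD, n = 2; a log2 change of 3.73 with SE 0.23 and adjusted p = 1.33e-05 by limma).

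Krtap13, a high-sulphur family member (probe set 10440666), read 4.96 and 4.40 under adjuvant, 4.86 and 4.84 under adjuvant+MLIF, 7.84 and 8.23 under CIA and 9.25 and 9.42 under CIA+MLIF. Its adjuvant values lay under the control medians, so its rise (a log2 change of 3.35 with SE 0.21 and adjusted p = 1.47e-05 by limma) has a low end that is not well determined. Krtap6-2, glycine-tyrosine-rich (probe set 10440724), read 5.61 and 5.66 under adjuvant, 5.63 and 5.71 under adjuvant+MLIF, 7.85 and 9.66 under CIA and 10.60 and 10.58 under CIA+MLIF. The CIA arrays differed from each other by more than for the other 3 members with the largest rises, and the fitted change was 3.12 (SE 0.45, adjusted p = 0.00153 by limma). Krtap6-5 of the same family (probe set 10440713) went from 4.89 ± 0.049 to 7.96 ± 0.29 (SD, n = 2; a log2 change of 3.07 with SE 0.21 and adjusted p = 2e-05 by limma), again from under the control medians.

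By family, all 4 Krtap6, all 5 Krtap4, all 3 Krtap1 and all 3 Krtap3 members rose, with median log2 changes of 2.70, 1.65, 1.44 and 1.52. Both Krtap13 members rose, and so did the single members Krtap8-1 (2.92), Krtap21-1 (2.73), Krtap11-1 (2.48), Krtap9-3 (0.82), Krtap17-1 (0.81) and Krtap15 (1.40). In the cuticle families 3 of 5 Krtap5 members rose, Krtap5-2 (2.33), Krtap5-4 (1.33) and Krtap5-5 (1.32), as did 1 of 2 Krtap10 members (Krtap10-4, 0.98). Of 6 Krtap19 members, Krtap19-2 (1.07) and Krtap19-5 (0.76) rose and the other 4 did not pass, with changes between -0.29 and 0.52. Neither Krtap31 gene passed (-0.20 and 0.076), and Krtap31-1 was the only member with its highest group mean in adjuvant.

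Among the ultra-high-sulphur Krtap4 genes of chromosome 11, Krtap4-16 (probe set 10390956) read 5.18 and 5.04 under adjuvant, 4.76 and 4.72 under adjuvant+MLIF, 7.22 and 8.05 under CIA and 8.36 and 8.69 under CIA+MLIF. Krtap4-7 (probe set 10390927) read 6.88 and 6.63 under adjuvant, 6.56 and 6.48 under adjuvant+MLIF, 8.42 and 8.39 under CIA and 9.12 and 8.81 under CIA+MLIF. In both, every collagen array lay above every array without collagen, and the changes of CIA against adjuvant were 2.53 (SE 0.25) and 1.65 (SE 0.16). Krtap1-5, a high-sulphur gene of the same cluster (probe set 10390897), read 5.25 and 4.65 under adjuvant, 4.96 and 4.84 under adjuvant+MLIF, 7.66 and 7.67 under CIA and 8.85 and 8.51 under CIA+MLIF. It too was higher on all collagen arrays (2.71, adjusted p = 4.28e-05 by limma).

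Krtap3-2 showed how far the CIA arrays could part. It read 6.07 and 6.09 under adjuvant, 6.20 and 6.14 under adjuvant+MLIF, 9.16 and 7.12 under CIA and 8.32 and 7.39 under CIA+MLIF, so CIA replicate 1 stood above every other array. The size of the rise (2.06, SE 0.55, adjusted p = 0.0315 by limma) thus depended on CIA replicate 1, while CIA replicate 2 also lay above every array without collagen. This member was not called without CIA replicate 1, nor without either adjuvant array or either CIA+MLIF array.

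With quantile normalization or with each array centred on its median, 38 members rose and none fell, and all 30 kept their call. The count ran from 21 to 38 of 44 over all settings tried. Without CIA replicate 2 it was 29, of which 28 rose and 1 (Krtap19-9b) fell, and 1594 of all probe sets were called higher and 16112 lower. With quantile normalization the split over all probe sets turned from 1245 higher and 4108 lower to 4176 higher and 3951 lower.

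Genes of other skin cells changed in the same comparison. Of 18 measured genes of the interfollicular epidermis, the skin between hairs, 17 rose and none fell in CIA against adjuvant (median 4.97). The log2 of their summed signal was 10.33 to 10.39 in adjuvant and 10.45 to 10.52 in adjuvant+MLIF, against 15.54 to 15.74 in CIA and 14.83 to 14.995 in CIA+MLIF, and none of the 18 was listed at 0. Krt1 (change 7.23, adjusted p = 4.31e-07) and Krt10 (change 6.41, adjusted p = 7.08e-07 by limma), keratins of its upper layers, are examples. All 16 muscle genes fell (median -1.38), with a summed log2 signal of 15.49 to 15.71 in CIA against 16.59 to 16.86 in the other groups. The part of the tissue make-up of the sampled paw in the Krtap result was not tested.

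**Figure D2:**
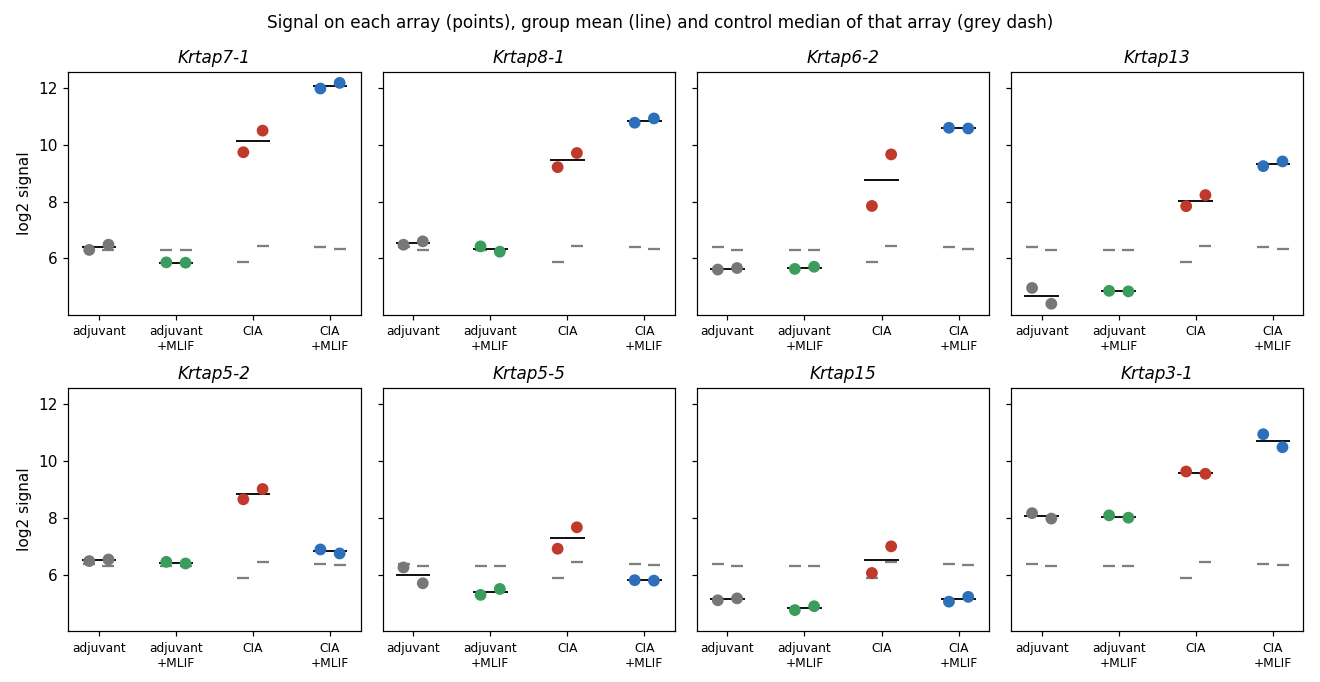
Log2 signal of 8 Krtap genes on each array (points, coloured by group), with the group mean (line) and the control median of the same array (grey dash). Krtap7-1, Krtap8-1, Krtap6-2, Krtap13 and Krtap3-1 climb from CIA to CIA+MLIF, while Krtap5-2, Krtap5-5 and Krtap15 are highest on the CIA arrays and near their adjuvant values on the CIA+MLIF arrays.

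CIA+MLIF was set against CIA to ask what the peptide changed in collagen-immunised mice. Here the members split: 14 rose and 6 fell, and of all probe sets 14.7% were called, 11.5% higher and 3.25% lower (limma, Benjamini-Hochberg). Those that rose belonged to the glycine-tyrosine-rich families Krtap6, Krtap7, Krtap8, Krtap19 and Krtap21 and to the Krtap1, Krtap3, Krtap4, Krtap11 and Krtap13 families, and those that fell were 4 Krtap5 genes, Krtap10-4 and Krtap15. The median member change was 0.37, against 0.24 over all probe sets. At an unadjusted p under 0.05 there were 29 members, 21 higher and 8 lower, against 9541 of all probe sets (33%). This comparison shares the CIA arrays with the one before it, so an array that reads high in CIA lowers this change as it raises the other.

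By gene cluster, on chromosome 16, 10 of 21 members rose and 1 (Krtap15) fell, and on chromosome 11, 4 of 15 rose and none fell (limma). On chromosome 7, 4 of 5 fell and none rose, with a median log2 change of -1.26, and on chromosome 10, 1 of 3 fell. With quantile normalization, and likewise with centring, 11 rose and 4 fell on chromosome 16, and 4 rose and 1 (Krtap17-1) fell on chromosome 11. On chromosome 7, 4 of 5 fell with quantile normalization and 5 with centring, and on chromosome 10 it was 3 of 3 and 2. Whether the clusters differ was not tested.

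Krtap7-1 had the largest rise. The CIA+MLIF mean was 12.08 ± 0.14, against 10.12 ± 0.54 under CIA (SD, n = 2; a log2 change of 1.96 with SE 0.23 and adjusted p = 0.000783 by limma), and both CIA+MLIF arrays lay above both CIA arrays. Krtap8-1, another glycine-tyrosine-rich cortex protein (probe set 10440727), read 6.48 and 6.60 under adjuvant, 6.42 and 6.24 under adjuvant+MLIF, 9.22 and 9.71 under CIA and 10.78 and 10.93 under CIA+MLIF. Its 4 groups stand in the order adjuvant+MLIF and adjuvant, then CIA, then CIA+MLIF, and the last step, CIA+MLIF over CIA, was 1.39 (SE 0.19, adjusted p = 0.00161 by limma).

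Krtap6-2 rose by 1.83 on the log2 scale (SE 0.45, adjusted p = 0.0272 by limma). The step was as large when either CIA+MLIF array was left out (1.82 and 1.85), but it was then not called. It depended on the CIA arrays, at 0.92 without CIA replicate 1 and 2.74 without CIA replicate 2, and was called in both cases. Its relatives Krtap6-1 (1.16, SE 0.19) and Krtap6-3 (1.36, SE 0.22) also rose. Krtap6-5 did not pass (0.24, adjusted p = 0.432 by limma), although it was among the largest rises of CIA against adjuvant.

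Krtap19-9b, of a glycine-tyrosine-rich family (probe set 10440700), had another course. It read 6.28 and 5.89 under adjuvant, 5.72 and 5.63 under adjuvant+MLIF, 4.98 and 6.60 under CIA and 7.43 and 7.16 under CIA+MLIF. Its CIA arrays lay on either side of all 4 adjuvant and adjuvant+MLIF arrays. Of the 5 comparisons only CIA+MLIF against CIA passed (a log2 change of 1.50 with SE 0.42 and adjusted p = 0.0449 by limma), a call lost in 6 of the alternative settings. The other 5 members of that family had changes from 0.023 to 0.54, none of which passed.

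Among the high-sulphur and ultra-high-sulphur genes, Krtap3-1 (probe set 10390895) read 8.17 and 7.98 under adjuvant, 8.09 and 8.01 under adjuvant+MLIF, 9.63 and 9.55 under CIA and 10.95 and 10.49 under CIA+MLIF. Both CIA arrays lay above the adjuvant groups and both CIA+MLIF arrays above CIA, and it rose by 1.12 (SE 0.18, adjusted p = 0.00387 by limma) from CIA to CIA+MLIF. Rises were also called for Krtap13 (1.30), Krtap13-1 (1.34), Krtap11-1 (1.33), Krtap1-5 (1.02), Krtap4-16 (0.89) and Krtap3-3 (0.58). Krtap21-1, of a glycine-tyrosine-rich family, was called higher too (1.17). Krtap3-3 lost its call with quantile normalization and with centring. Krtap9-3, an ultra-high-sulphur gene (probe set 10390909), read 8.02 and 7.95 under adjuvant, 7.93 and 7.89 under adjuvant+MLIF, 8.50 and 9.10 under CIA and 9.17 and 9.40 under CIA+MLIF. It changed by 0.48 here (adjusted p = 0.135 by limma).

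The falls were led by the cuticle family Krtap5. Krtap5-2 (probe set 10569291) read 6.48 and 6.54 under adjuvant, 6.45 and 6.39 under adjuvant+MLIF, 8.66 and 9.02 under CIA and 6.89 and 6.75 under CIA+MLIF. The CIA arrays stood above the other 6, and the CIA+MLIF arrays lay close to the adjuvant arrays. The fall was -2.02 (SE 0.16, adjusted p = 0.000113 by limma). Krtap5-5 (probe set 10569300) read 6.26 and 5.70 under adjuvant, 5.29 and 5.50 under adjuvant+MLIF, 6.91 and 7.67 under CIA and 5.81 and 5.79 under CIA+MLIF, and its CIA+MLIF arrays too came close to the adjuvant arrays. The fitted change was -1.49 (SE 0.26, adjusted p = 0.00604 by limma).

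Krtap5-4 (probe set 10559181) read 6.85 and 6.53 under adjuvant, 6.26 and 6.30 under adjuvant+MLIF, 7.90 and 8.14 under CIA and 6.998 and 6.52 under CIA+MLIF, again highest in CIA, and fell with a change of -1.26 (SE 0.20, adjusted p = 0.00351 by limma). Krtap5-1 (probe set 10569308) read 8.87 and 8.63 under adjuvant, 8.39 and 8.49 under adjuvant+MLIF, 9.12 and 10.04 under CIA and 8.54 and 8.75 under CIA+MLIF. CIA replicate 2 was its highest array, CIA against adjuvant did not pass (0.83, adjusted p = 0.0601), and CIA+MLIF against CIA did (-0.94, adjusted p = 0.0471 by limma). Krtap5-3 (probe set 10559172) read 9.04 and 8.89 under adjuvant, 8.80 and 8.98 under adjuvant+MLIF, 9.17 and 9.20 under CIA and 8.72 and 9.02 under CIA+MLIF. Within this narrow span the CIA arrays were the highest and the other groups overlapped, and the gene passed in no comparison.

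Outside that family, Krtap15, a high-sulphur gene on chromosome 16 (probe set 10436752), read 5.10 and 5.17 under adjuvant, 4.75 and 4.89 under adjuvant+MLIF, 6.06 and 6.998 under CIA and 5.05 and 5.22 under CIA+MLIF. Like the Krtap5 genes it was highest on the CIA arrays, and it fell with a change of -1.39 (SE 0.26, adjusted p = 0.00867 by limma). Krtap10-4, of another cuticle family (probe set 10370330), read 7.05 and 6.92 under adjuvant, 6.91 and 6.89 under adjuvant+MLIF, 7.58 and 8.35 under CIA and 6.98 and 6.96 under CIA+MLIF. The CIA arrays were again the highest, with a change of -0.996 (SE 0.23, adjusted p = 0.021 by limma). Krtap17-1 (probe set 10390961), which read 8.84 and 8.75 under adjuvant, 8.95 and 8.91 under adjuvant+MLIF, 9.69 and 9.53 under CIA and 9.03 and 9.21 under CIA+MLIF, had risen with collagen (0.81, adjusted p = 0.0055) and did not pass here (-0.49, adjusted p = 0.0569 by limma).

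The split of calls depended on the scaling. With quantile normalization, and likewise with each array centred on its median, 15 members rose and 12 fell. Over all 28944 probe sets the calls were then 3318 higher and 3771 lower with quantile normalization and 3479 higher and 3505 lower with centring, against 3315 higher and 942 lower in the deposited values. Centring did not turn the sign of a called member, and neither did quantile normalization. The number called was 32 (23 higher, 9 lower) without CIA replicate 2, where 16019 of all probe sets were called higher and 1334 lower. It was 11 (9 higher, 2 lower) without either CIA+MLIF array and 8 with array weights; all probe sets gave 1254 higher and 321 lower without CIA+MLIF replicate 1, 1431 and 440 without replicate 2, and 1037 and 224 with array weights. Called both without CIA+MLIF replicate 1 and without replicate 2 were Krtap3-1, Krtap6-1, Krtap6-3, Krtap7-1, Krtap8-1, Krtap13, Krtap13-1, Krtap21-1, Krtap5-2 and Krtap5-4.

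**Figure D3:**
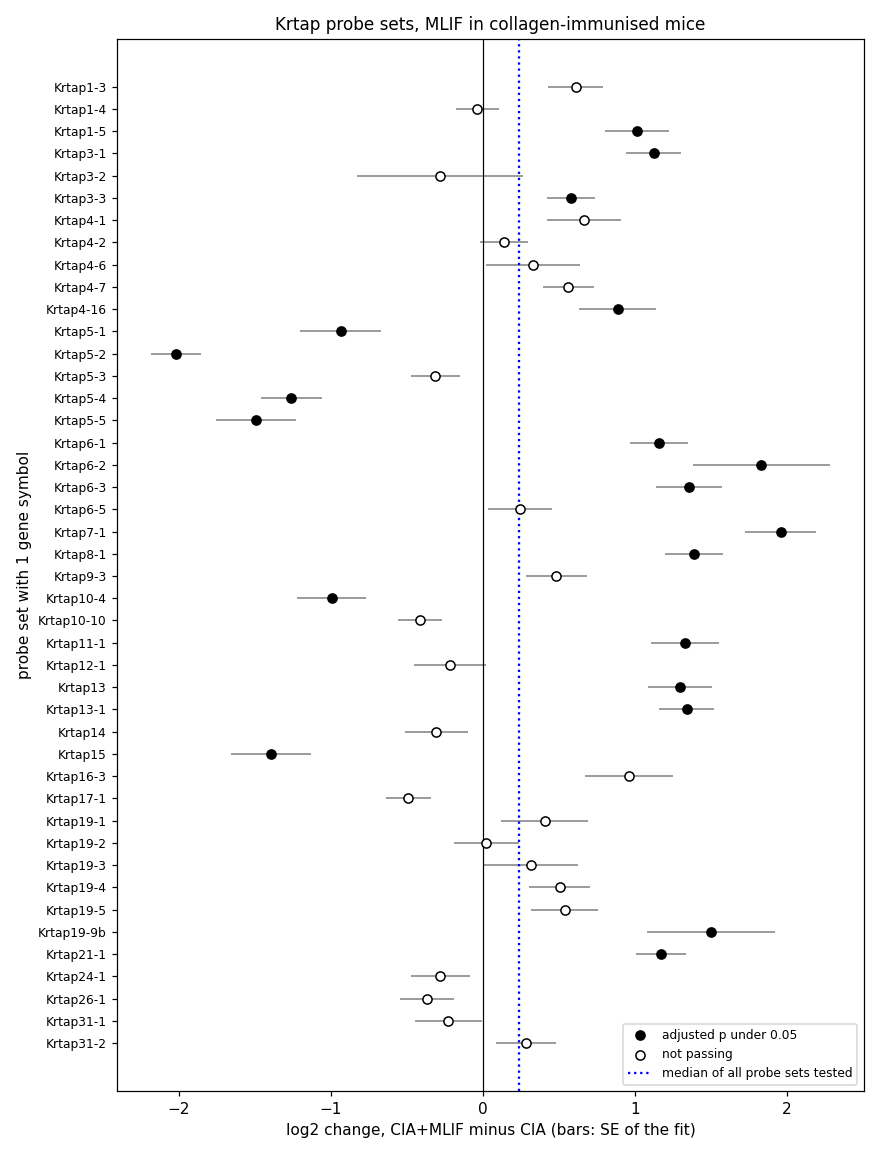
Log2 change of each of the 44 single-symbol Krtap probe sets from CIA to CIA+MLIF (points), with the standard error of the fit (bars); filled points passed at an adjusted p under 0.05, and the dotted line is the median of all probe sets tested, 0.24. Krtap7-1 lies farthest right at 1.96 and Krtap5-2 farthest left at -2.02; the 14 filled points on the right are members of the chromosome 11 and 16 clusters, and 4 of the 6 on the left are Krtap5 genes.

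In the groups without collagen no member passed. Comparing adjuvant+MLIF with adjuvant, 0 of the 44 passed and 0% of all probe sets did (limma, Benjamini-Hochberg), and the smallest adjusted p of a member was 0.749. At an unadjusted p under 0.05 there were 3 members, all lower, against 1107 of all probe sets (3.82%). The member changes ran from -0.67 (Krtap6-3) to 0.37 (Krtap19-3), with a median of -0.09. Krtap6-3 read 5.33 and 5.52 in adjuvant and 4.72 and 4.79 in adjuvant+MLIF, so its arrays did not overlap. With array weights 3 members were called lower (Krtap6-3, Krtap7-1 and Krtap21-1), with only the arrays of these groups in the fit 2 (Krtap6-3 and Krtap21-1), and without either CIA array 1 (Krtap6-3). All probe sets then gave 430 higher and 1010 lower with array weights, 78 and 598 with only these groups, and 43 and 486 without either CIA array.

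CIA+MLIF was set against adjuvant+MLIF to ask what collagen changed in mice that all received the peptide. It uses none of the arrays of CIA against adjuvant. In it 22 members rose and none fell, whereas of all probe sets 0.729% were called, 0.712% higher and 0.0173% lower (limma, Benjamini-Hochberg). The median member change was 1.32, against -0.03 over all probe sets. At an unadjusted p under 0.05, 29 members passed, all higher, against 1361 of all probe sets (4.7%).

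Krtap7-1 had the largest change. Its mean went from 5.86 ± 0.0081 to 12.08 ± 0.14 (SD, n = 2), a 74.9-fold difference in signal (a log2 change of 6.23 with SE 0.23 and adjusted p = 2.62e-06 by limma). Krtap6-2 (4.92, SE 0.45), Krtap8-1 (4.52, SE 0.19) and Krtap13 (4.48, SE 0.21) followed. For Krtap7-1, Krtap6-2 and Krtap13 both adjuvant+MLIF arrays lay under their control medians, so the sizes of these steps, the fold included, are not well determined.

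By gene cluster, 10 of 15 members on chromosome 11 and 12 of 21 on chromosome 16 rose, and none of the 5 on chromosome 7 or the 3 on chromosome 10 passed. All 4 Krtap6 members, all 3 Krtap1 members and both Krtap13 members rose, with medians of 3.91, 1.84 and 4.11. The Krtap5 changes ran from -0.019 to 0.48, and Krtap15 changed by 0.31 (adjusted p = 1 by limma). All probe sets gave 355 higher and 58 lower with quantile normalization, and 304 and 36 with centring. Of the members 25 rose with quantile normalization and 24 with centring, and none fell under either. Leaving out 1 array gave 19 to 26.

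Set side by side over the 44 members, the collagen changes without and with MLIF gave a Pearson r of 0.874 and a Spearman rho of 0.846. These comparisons share no arrays, but the genes were read on the same arrays within each and some share sequence, so the value is a description. Changes of the chromosome 7 cluster were unlike in size: Krtap5-2 changed by 2.33 without MLIF and by 0.40 with it, and Krtap5-5 by 1.32 and 0.41.

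**Figure D4:**
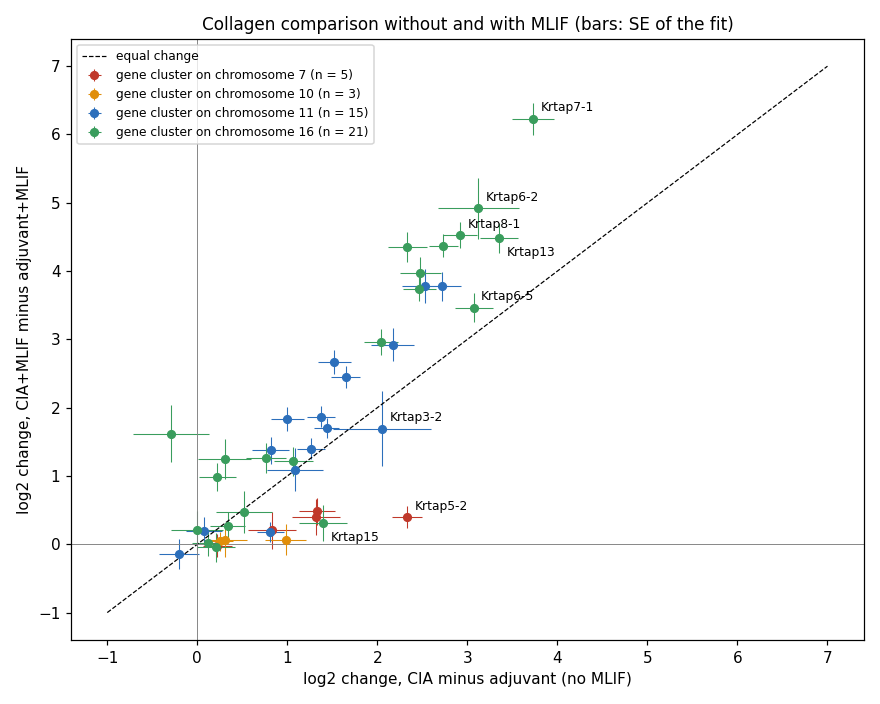
Log2 change with collagen immunisation for each single-symbol Krtap gene, without MLIF (CIA minus adjuvant, horizontal) and with MLIF (CIA+MLIF minus adjuvant+MLIF, vertical), coloured by gene cluster, with standard errors of the fit; the dashed line marks equal change. Krtap7-1 lies far above the line at 3.73 and 6.23, and Krtap5-2 far below it at 2.33 and 0.40.

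The interaction tests whether the peptide's change differed between the collagen and the adjuvant groups, as the CIA+MLIF minus CIA change less the adjuvant+MLIF minus adjuvant change. It passed for 8 members, 7 higher and 1 lower, against 7.24% of all probe sets called, 5.62% higher and 1.62% lower (limma, Benjamini-Hochberg). The 7 were Krtap7-1 (2.50, SE 0.33), Krtap6-3 (2.03, SE 0.31), Krtap21-1 (1.64, SE 0.24), Krtap8-1 (1.60, SE 0.27), Krtap11-1 (1.50), Krtap13-1 (1.28) and Krtap3-1 (1.15). The lower one was Krtap5-2 (-1.93, SE 0.23, adjusted p = 0.00138 by limma).

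Krtap6-3 (probe set 10436764), glycine-tyrosine-rich, read 5.33 and 5.52 under adjuvant, 4.72 and 4.79 under adjuvant+MLIF, 7.41 and 8.10 under CIA and 9.06 and 9.17 under CIA+MLIF. Its adjuvant+MLIF arrays were the lowest and its CIA+MLIF arrays the highest, and all values without collagen lay under the control medians. Krtap21-1 (probe set 10440721), of a glycine-tyrosine-rich family too, read 6.10 and 5.99 under adjuvant, 5.60 and 5.55 under adjuvant+MLIF, 8.70 and 8.85 under CIA and 9.76 and 10.13 under CIA+MLIF, the same order of groups. Krtap11-1 (probe set 10440731), a high-sulphur gene, read 6.55 and 6.75 under adjuvant, 6.50 and 6.46 under adjuvant+MLIF, 8.81 and 9.44 under CIA and 10.26 and 10.65 under CIA+MLIF. Here the adjuvant and adjuvant+MLIF arrays lay together, and CIA and then CIA+MLIF above them. Krtap13-1 (probe set 10436746) read 5.64 and 5.51 under adjuvant, 5.61 and 5.67 under adjuvant+MLIF, 7.80 and 8.28 under CIA and 9.35 and 9.41 under CIA+MLIF, with the CIA+MLIF arrays again on top.

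Scaling moved this count too. There were 12 higher and 8 lower with quantile normalization, and 10 higher and 6 lower with centring. All probe sets gave 2493 higher and 2544 lower with quantile normalization and 2373 higher and 2352 lower with centring, against 1626 and 469 in the deposited values. Of the 8 calls only that of Krtap3-1 was lost, under both scalings. The count was 5 without adjuvant replicate 1 and also without either adjuvant+MLIF array, 7 without adjuvant replicate 2, 6 without either CIA+MLIF array, 19 without CIA replicate 1 and 25 without CIA replicate 2. All probe sets gave 2596 higher and 2038 lower without CIA replicate 1, and 11886 higher and 1177 lower without CIA replicate 2. Krtap21-1, Krtap5-2, Krtap6-3, Krtap7-1 and Krtap8-1 were called in every fit that left out an adjuvant, adjuvant+MLIF or CIA+MLIF array.

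Across these tests the members fell into a few patterns. Passing higher in both collagen comparisons and in CIA+MLIF against CIA were 13 genes: Krtap1-5, Krtap3-1, Krtap3-3, Krtap4-16, Krtap6-1, Krtap6-2, Krtap6-3, Krtap7-1, Krtap8-1, Krtap11-1, Krtap13, Krtap13-1 and Krtap21-1. A further 9 rose in both collagen comparisons with no call for the peptide: Krtap1-3, Krtap1-4, Krtap4-1, Krtap4-2, Krtap4-7, Krtap6-5, Krtap9-3, Krtap19-2 and Krtap19-5. In 5, Krtap5-2, Krtap5-4, Krtap5-5, Krtap10-4 and Krtap15, the level rose with collagen alone, fell with the peptide and did not pass in CIA+MLIF against adjuvant+MLIF. Krtap3-2, Krtap4-6 and Krtap17-1 passed in CIA against adjuvant alone. The highest group mean was that of CIA+MLIF for 28 members, of CIA for 15 and of adjuvant for 1.

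The 12 members that passed nowhere were Krtap5-3, Krtap10-10, Krtap12-1, Krtap14, Krtap16-3, Krtap19-1, Krtap19-3, Krtap19-4, Krtap24-1, Krtap26-1, Krtap31-1 and Krtap31-2. Of these, Krtap16-3 came nearest in CIA+MLIF against CIA (0.96, SE 0.29, adjusted p = 0.057 by limma). Under another scaling 9 of the 12 did pass in some comparison. Krtap10-10, Krtap14, Krtap24-1 and Krtap26-1 passed with quantile normalization and with centring, higher in CIA against adjuvant and lower in CIA+MLIF against CIA. Krtap12-1 did so as well, except in CIA+MLIF against CIA with centring. Krtap16-3 passed higher under both scalings in CIA+MLIF against CIA and in CIA+MLIF against adjuvant+MLIF, and with quantile normalization in CIA against adjuvant. Krtap19-3 passed higher under both in CIA against adjuvant, and Krtap19-4 under both in CIA+MLIF against adjuvant+MLIF and with centring in CIA against adjuvant. Krtap5-3 passed lower in CIA+MLIF against CIA with centring. In the interaction Krtap14, Krtap19-4 and Krtap26-1 passed with quantile normalization.

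The row that carried both Krtap5-3 and Krtap5-2 (probe set 10569296) read 9.24 and 9.12 under adjuvant, 8.87 and 8.89 under adjuvant+MLIF, 10.50 and 10.61 under CIA and 9.33 and 9.06 under CIA+MLIF. The CIA arrays stood alone above the rest, as for Krtap5-2 itself. It rose with collagen (1.38, adjusted p = 0.000363) and fell with the peptide (-1.36, SE 0.15, adjusted p = 0.000584 by limma). Its signal cannot be assigned to either gene.

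Hair keratins are the filament partners of the Krtap proteins. Of 13 measured, 11 rose and none fell in CIA against adjuvant, and 10 rose and none fell in CIA+MLIF against adjuvant+MLIF, with medians of 1.19 and 2.29. In CIA+MLIF against CIA 8 rose and 2 fell, also with quantile normalization and with centring. Krt33b, a cortex keratin, read 7.49 and 7.76 under adjuvant, 7.69 and 7.73 under adjuvant+MLIF, 8.86 and 8.93 under CIA and 10.52 and 10.88 under CIA+MLIF. It was highest in CIA+MLIF, with a change from CIA of 1.80 (SE 0.17, adjusted p = 0.000254 by limma).

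Krt87 (1.80), Krt31 (1.59, a cortex keratin) and Krt84 (1.51) rose in that comparison as well. The falls were those of Krt82 (-0.60, adjusted p = 0.0244) and Krt32 (-0.60, adjusted p = 0.0431 by limma), keratins known from the hair cuticle. Cuticle members of both gene families were among those that fell, but other genes of the same list and families did not fall. Krt39 rose (1.19, adjusted p = 0.0097 by limma), and Krt40 (0.42), Krtap5-3, Krtap10-10 and Krtap12-1 did not pass. A pattern by hair layer was not tested. The log2 of the summed signal of the list was 10.23 to 10.33 in both adjuvant groups, 11.55 to 11.56 in CIA and 12.74 to 12.82 in CIA+MLIF.

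Genes of the inner root sheath and companion layer, which surround the growing shaft, were read beside them. Of 11, 6 rose and none fell in CIA against adjuvant, 6 fell and none rose in CIA+MLIF against CIA, and none passed in CIA+MLIF against adjuvant+MLIF. Krt71, an inner root sheath keratin, read 6.24 and 6.17 under adjuvant, 6.50 and 6.40 under adjuvant+MLIF, 8.91 and 9.10 under CIA and 6.55 and 6.22 under CIA+MLIF, so it was high on the CIA arrays alone. Its changes were 2.80 and -2.62 (adjusted p = 8.79e-06 and 3.82e-05 by limma). Krt25 (-2.58), Krt27 (-1.76) and Tchh (-1.40), which encodes trichohyalin, fell with it.

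Among 14 regulators and further shaft genes, 5 rose in CIA against adjuvant and none fell. Hoxc13, a homeobox factor known to switch on hair keratins and Krtap genes, read 5.64 and 5.51 under adjuvant, 5.44 and 5.35 under adjuvant+MLIF, 5.83 and 6.35 under CIA and 6.26 and 6.40 under CIA+MLIF. It lay under the control median on every array but CIA+MLIF replicate 2, and passed in no comparison (0.52, adjusted p = 0.0886 in CIA against adjuvant, and 0.94, adjusted p = 0.0974 in CIA+MLIF against adjuvant+MLIF, by limma). Tgm3, a transglutaminase of hair and epidermis (2.95), Gprc5d (1.23), S100a3 (1.17), Gata3 (1.14) and Dsg4, a desmosomal cadherin of hair (0.92), were the 5. With the peptide Dsg4 rose again (0.77), a call lost with quantile normalization and with centring, and Tgm3 (-1.24), Gata3 (-0.83) and S100a3 (-0.58) fell.

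In CIA+MLIF against CIA 11 of 18 epidermal genes fell and none rose (median -0.84), and all 16 muscle genes rose (median 1.24). In CIA+MLIF against adjuvant+MLIF 14 of 18 epidermal genes rose and none fell, and none of the muscle genes passed. Krt10 went from 12.84 ± 0.035 to 11.81 ± 0.24 (SD, n = 2; a log2 change of -1.03 with SE 0.20 and adjusted p = 0.00964 by limma), whereas Krt1 did not pass (-0.20, adjusted p = 0.517). The part of the skin, hair and muscle content of each sample in these results was not tested.

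**Figure D5:**
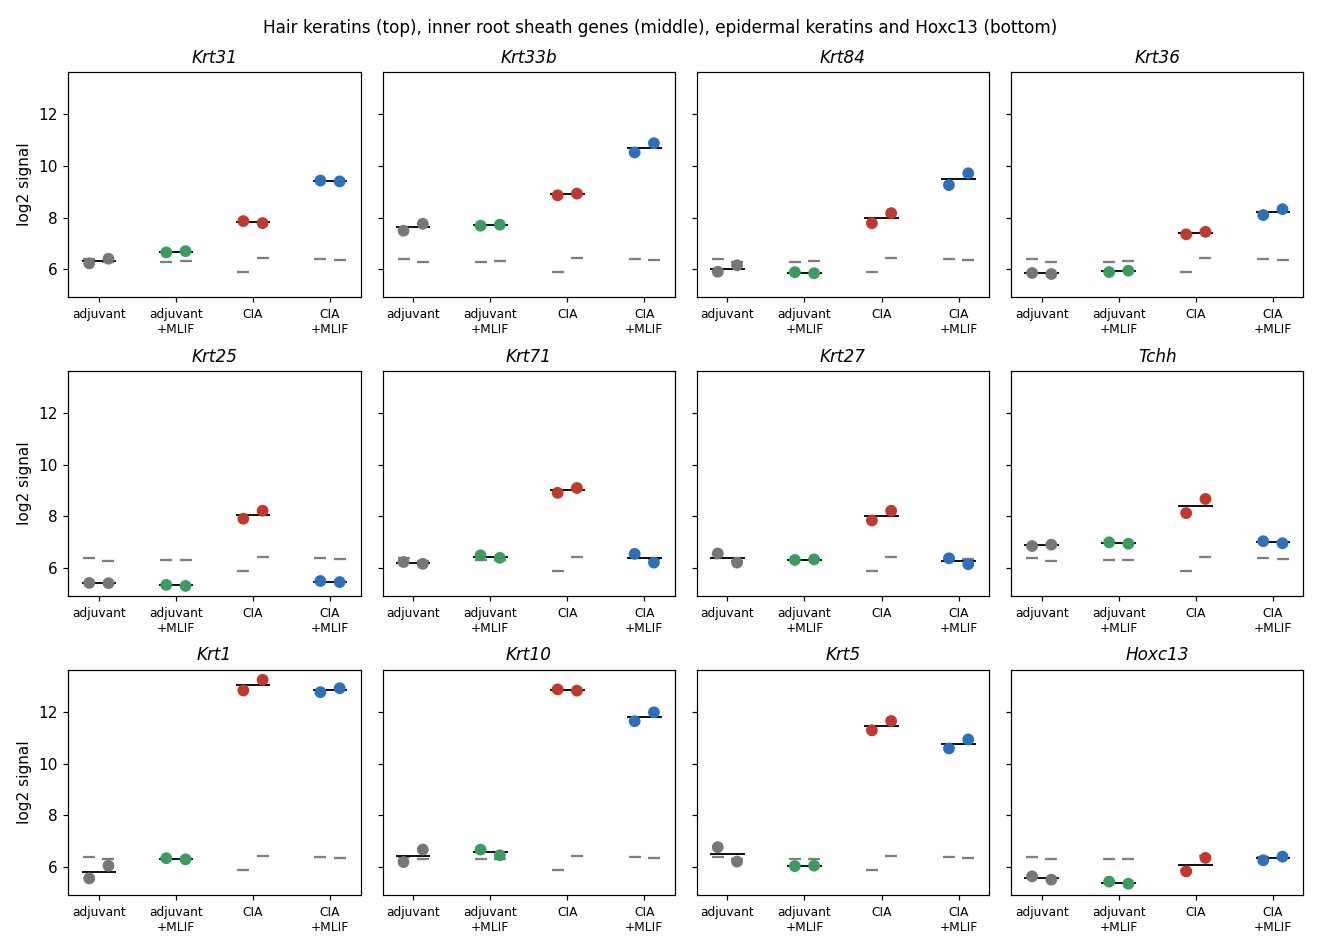
Log2 signal on each array (points, coloured by group) of hair keratins (Krt31, Krt33b, Krt84, Krt36), inner root sheath genes (Krt25, Krt71, Krt27, Tchh), epidermal keratins (Krt1, Krt10, Krt5) and Hoxc13, with group means (lines) and array control medians (grey dashes). The hair keratins are highest in CIA+MLIF, the inner root sheath genes are high in CIA alone, and the epidermal keratins are high in both collagen groups.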

How the data were processed

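Values were the log2 signals of a whole-series table of Affymetrix Mouse Gene 1.0 ST arrays, hybridised with biotin-labelled cDNA made from 300 ng of total RNA per the labels' protocols. The scale of this deposited table was read from its values as log2. The authors' software, background correction and normalization are not given in the sources used. Rows were named through the platform annotation, and symbols, chromosomes and promoters came from RefSeq (GRCm38.p6). Of 35557 entries, 6613 without annotation were taken as array controls, an inference, and 28944 probe sets were tested. No filter on low signal was applied.

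Groups followed the sample titles. The deposited log2 values were fitted with limma 3.58.1 in R 4.3.3 as 4 group means over all 8 arrays, which left 4 residual degrees of freedom, with moderated two-sided tests and Benjamini-Hochberg adjustment over all 28944 probe sets at 0.05. The fit was tested on simulated data. Quantile normalization, centring on array medians, leaving out the lowest tercile of mean signal, trended and robust variance, array weights, only the groups compared, a replicate block, averaging the adjuvant+MLIF arrays and leaving out each array were alternatives. Deviations of same-numbered arrays correlated between -0.11 and 0.39 over the 6 pairs of groups; 1 pair, adjuvant with CIA+MLIF (0.39), was above 0.1, so the numbers were not taken to pair the arrays. Plots used Matplotlib 3.10.9 (Python 3.11.15).

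The members and the lists of hair, skin, muscle and joint genes were chosen with earlier results of these data known. Members with full values were the 4 largest changes per comparison and direction among those passing and the 6 with the highest mean signal, beside up to 4 passing genes per list and comparison and Hoxc13, Krt1 and Krt10. A further step of that rule, by protein class, was not applied for want of protein sequences, and the families and gene clusters used in its place, and any other gene named, were chosen after values were seen.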

Additional observations from a re-analysis of the deposited data

Results flagged for a closer look

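The interaction test (limma, Benjamini-Hochberg over all probe sets) singled out members in which the change with MLIF differed between collagen-immunised and adjuvant mice. It was higher in the collagen groups by 2.50 on the log2 scale for Krtap7-1, 2.03 for Krtap6-3, 1.64 for Krtap21-1, 1.60 for Krtap8-1, 1.50 for Krtap11-1, 1.28 for Krtap13-1 and 1.15 for Krtap3-1. It was lower, at -1.93, for Krtap5-2 and at -1.06 for the row shared by Krtap5-3 and Krtap5-2. In Krtap6-3, Krtap7-1 and Krtap21-1 part of the interaction value came from the adjuvant groups. The change with MLIF was -0.67, -0.54 and -0.47 there, without passing. It was -0.21 for Krtap8-1, -0.17 for Krtap11-1, -0.023 for Krtap3-1 and 0.065 for Krtap13-1, and none of these passed. With 2 arrays a group, single arrays were not tested for standing apart.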

How the results depend on the processing

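No alternative turned the direction of a member named by the rule, and 17 of their values lost significance while 333 kept it; most losses were of Krtap6-2, Krtap19-9b, Krtap5-5 and Krtap15 in CIA+MLIF against CIA. In that comparison 20 members were called, against 8 with array weights and 11 to 32 when leaving out 1 array. In adjuvant+MLIF against adjuvant array weights called 3 and a fit of those groups alone 2, against 0, and leaving out 1 array gave 0 to 1. The interaction called 8, against 20 with quantile normalization, 16 with centring, 14 without the lowest tercile of signal (which leaves 32 members), 5 with the adjuvant+MLIF arrays averaged and 5 to 25 when leaving out 1 array. CIA against adjuvant called 21 to 36 and CIA+MLIF against adjuvant+MLIF 19 to 26 when leaving out 1 array.

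The median member change of CIA against adjuvant was 1.29, against 1.49 with quantile normalization, 1.51 with centring, 1.58 without the lowest tercile and 0.93 to 1.38 when leaving out 1 array. For CIA+MLIF against CIA the median of 0.37 became 0.11, 0.14 and 0.57 in the same order and 0.23 to 0.56 leaving out 1 array. For the interaction 0.33 became 0.16, 0.11 and 0.76, and 0.27 to 0.43. For CIA+MLIF against adjuvant+MLIF 1.32 became 1.85 without the lowest tercile, and 1.25 to 1.41 leaving out 1 array. Leaving out low probe sets or arrays changes the genes or samples used; for scaling and weights the cause was not tested.

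In the 5 comparisons, in the report's order, a fit with the replicate number as a block called 29, 20, 0, 21 and 9 members. Of those 20, 18 were among the 20 called without the block. All probe sets gave, in this order, 1224 higher and 3988 lower, 3142 and 921, 0 and 0, 195 and 5, and 1558 and 466. With the CIA numbers crossed, a pairing tried after the data were seen, the block called 31, 23, 0, 22 and 11 members. All probe sets then gave 1208 higher and 4401 lower, 3717 and 903, 0 and 0, 206 and 6, and 1778 and 457. Members near the control signal and 2 arrays a group limit all values.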

Other observations

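Rows that list Krtap symbols beside other gene models were no members, and 14 were present. One (probe set 10440717), listing Krtap6-5 and Krtap6-1 with other models, read 9.87 and 9.84 under adjuvant, 9.43 and 9.36 under adjuvant+MLIF, 12.23 and 13.19 under CIA and 13.38 and 13.95 under CIA+MLIF. It was higher in both collagen groups than in both adjuvant groups, and CIA+MLIF against CIA did not pass (a log2 change of 0.96 with SE 0.30 and adjusted p = 0.0624 by limma). In 4 rows listing Krtap2-4 with other models, signals were highest in CIA+MLIF: the first (probe set 10390911) read 8.48 and 8.30 under adjuvant, 8.29 and 8.23 under adjuvant+MLIF, 9.80 and 10.15 under CIA and 11.37 and 11.02 under CIA+MLIF, with a change of 1.22 from CIA to CIA+MLIF (adjusted p = 0.00274 by limma). Of these 4, a pair (probe sets 10390915 and 10390917) had identical values on all 8 arrays.

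Rows listing Krtap5 genes with other models were highest in CIA. The one with the largest change (probe set 10559175) read 8.92 and 8.74 under adjuvant, 8.61 and 8.63 under adjuvant+MLIF, 10.78 and 10.62 under CIA and 8.94 and 8.87 under CIA+MLIF, and its change from CIA to CIA+MLIF was -1.79 (SE 0.15, adjusted p = 0.000117 by limma). CIA+MLIF exceeded adjuvant+MLIF by 0.28 in this row, which did not pass (adjusted p = 1 by limma).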
